A study of Mus musculus with 6 samples.

Results

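The CDK inhibitor genes were described in mouse granulosa cells (GCs), the somatic cells that surround the oocyte in the ovarian follicle. The members were chosen by gene name, with earlier results of these data known. They are the 7 genes *Cdkn1a*, *Cdkn1b*, *Cdkn1c*, *Cdkn2a*, *Cdkn2b*, *Cdkn2c* and *Cdkn2d* among 54532 genes with a value. GCs came from ICR females aged 3 weeks that had all been primed with 5 IU of PMSG, a gonadotropin that drives follicle growth. At 22 h after PMSG the mice received an intraperitoneal injection of either PBS or 120 mg/kg of CTX, a DNA-alkylating chemotherapy drug, and the GCs were taken 6 h after that. There were 3 samples per group, and each pooled the GCs of 3 mice, so no value belongs to 1 animal and a single dose and time were measured. Levels are given as FPKM, a read density that corrects for gene length and depth.

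CDK inhibitors are small proteins that hold back the cyclin-dependent kinases and so slow the entry of a cell into S phase. They form 2 families. The Cip/Kip proteins p21 (*Cdkn1a*), p27 (*Cdkn1b*) and p57 (*Cdkn1c*) bind complexes of several cyclins and kinases, while the INK4 proteins p16 (*Cdkn2a*), p15 (*Cdkn2b*), p18 (*Cdkn2c*) and p19 (*Cdkn2d*) bind CDK4 and CDK6 and keep the D-type cyclins from activating them. p21 is a long-known transcriptional target of p53 after DNA damage, p27 is controlled to a large extent through its degradation, and in the ovary p27 is known for restraining GC proliferation. When the inhibitors act, RB proteins stay bound to E2F factors and the genes of DNA replication stay repressed.

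Depth was alike in both groups, from 16005869 to 17790353 reads on genes in the PBS samples and from 17727770 to 18455011 in the CTX samples. The 10 GC markers summed to 12580 to 13820 FPKM in PBS and 10794 to 11600 in CTX, and most of the sum was *Inha*, the inhibin alpha gene, at 8556 to 10402 FPKM. Of these 10 markers 0 were called, beside 0.802% of all tested genes called higher and 0.159% lower. In 6 of them every CTX sample lay below every PBS sample, a pattern found in 14.1% of all tested genes. *Foxl2*, a transcription factor of GCs, was at 188 ± 4.88 FPKM in PBS and 110 ± 34.2 in CTX (SD, n = 3 each). Oocyte markers summed to 36.9 to 91.3 FPKM, so some oocyte RNA was present in both groups, and the 11 leukocyte markers summed to 20.03 to 22.7 FPKM in PBS and 23.0 to 61.3 in CTX. Among the leukocyte markers *Ptprc* was at 0.064 to 0.098 FPKM in all samples and *Cd14* was called higher (1.07 ± 0.222 and 2.75 ± 0.419 FPKM, adjusted p = 0.035, limma). This call was lost without CTX replicate 3 or without any 1 of the PBS samples. *Acta2*, a smooth muscle actin gene on the theca and stroma list, was also called higher (8.06 ± 0.482 and 17.3 ± 2.93 FPKM, adjusted p = 0.017, limma). The *Acta2* call was lost under the same omissions. Of 5 tested leukocyte and 7 tested theca and stroma markers, 1 each was called higher and 0 lower, beside 0.802% and 0.159% of all tested genes. Members of both lists also fell, with log2 differences of -1.13 for *S100a9* and -2.04 for *Cyp17a1* (-0.76 without CTX replicate 2). *Inha*, *Cd14*, *Acta2* and *S100a9* were named after their values were seen. CTX replicate 2 stood apart on the first principal component (46.8% of the variance), at 74.7 where the other 5 samples lay between -26.6 and 13.2. Values that moved by over 1.5 times without this sample are therefore given both ways for the genes and lists named.

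*Cdkn1a* rose after CTX treatment and the other 6 members did not pass the test. A gene was called when the limma adjusted p was below 0.05 and the change over 2-fold, and 1 of the 6 tested members was called higher and 0 lower. Over the 14463 genes tested, 0.802% were called higher and 0.159% lower. By adjusted p alone, 1.4% of all genes passed higher and 0.36% lower, and the members' counts were again 1 and 0 (1 member had an unadjusted p below 0.05). *Cdkn2a* was the member left untested, because its mean over the 6 samples was 0.192 FPKM and the filter asked for 0.5. The plot of all members by sample shows each value.

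**Figure D1:**
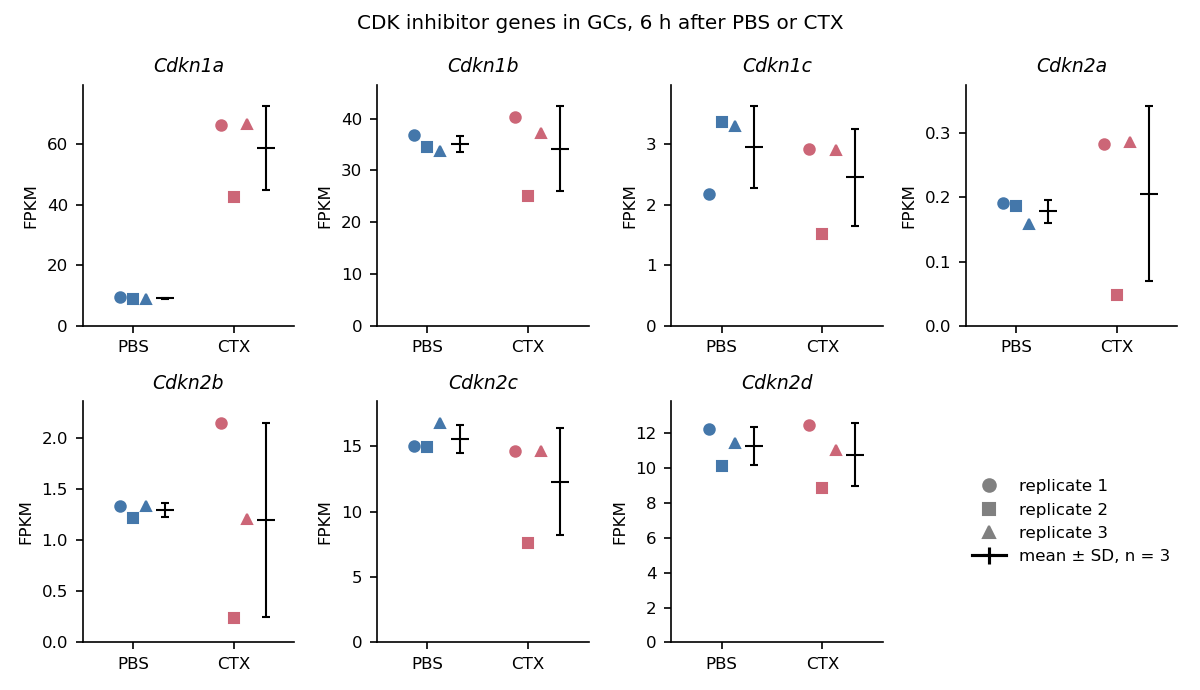
Level in FPKM (y axis, linear, own scale per gene) of the 7 CDK inhibitor genes in the 3 PBS and 3 CTX samples, with symbols for the replicate and bars for the mean ± SD. *Cdkn1a* is the gene whose CTX samples (42.7 to 66.8) all lie above its PBS samples (8.86 to 9.43), and the square of CTX replicate 2 is the lowest CTX value in every panel.

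*Cdkn1a* (ENSMUSG00000023067) lies on the plus strand at chr17:29090976-29100727 of mm10, with 3553 exonic bases. Its level was 9.43, 8.86 and 8.90 FPKM in the PBS samples and 66.4, 42.7 and 66.8 FPKM in the CTX samples. The groups did not overlap, and the lowest CTX sample stood well above the highest PBS sample. The mean level went from 9.06 ± 0.319 (SD, n = 3) to 58.6 ± 13.8 FPKM (SD, n = 3), which is 6.47-fold. On the scale of log2(FPKM + 0.1) the difference was 2.65 with an SE of 0.18 and an adjusted p of 1.9e-03 (limma, Benjamini-Hochberg), and the 95% interval ran from 4.65-fold to 8.48-fold. There were 27 genes with a lower adjusted p. These values rested on 512 to 597 reads per PBS sample and 2689 to 4276 reads per CTX sample, so counting error was small beside the spread of the CTX samples. CTX replicates 1 and 3 were 7.35-fold over the PBS mean and CTX replicate 2 was 4.71-fold over it. Without CTX replicate 2 the log2 difference was 2.87 with an SE of 0.06 (adjusted p = 6.4e-05 by limma).

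*Cdkn1a* has an upstream and a downstream transcription start in RefSeq, 2790 bases apart, and both promoter windows are shown because this is the member that changed. Each window holds 250 bases before the start and 50 after it, from RefSeq on GRCm38.p6, and capitals mark matches on either strand to the GC box GGGCGG and to the p53 response element. The upstream window (chr17:29090729-29091028, plus strand) has a GC content of 54.7% and 2 CpG dinucleotides.
Cdkn1a upstream: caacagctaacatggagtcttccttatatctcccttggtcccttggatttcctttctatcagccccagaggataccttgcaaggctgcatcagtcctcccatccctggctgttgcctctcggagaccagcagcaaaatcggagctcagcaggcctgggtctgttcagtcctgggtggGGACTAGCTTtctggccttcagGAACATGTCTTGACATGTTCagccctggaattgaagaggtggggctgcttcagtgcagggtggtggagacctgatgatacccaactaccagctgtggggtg
The downstream window (chr17:29093519-29093818, plus strand) has a GC content of 64.7% and 23 CpG dinucleotides.
Cdkn1a downstream: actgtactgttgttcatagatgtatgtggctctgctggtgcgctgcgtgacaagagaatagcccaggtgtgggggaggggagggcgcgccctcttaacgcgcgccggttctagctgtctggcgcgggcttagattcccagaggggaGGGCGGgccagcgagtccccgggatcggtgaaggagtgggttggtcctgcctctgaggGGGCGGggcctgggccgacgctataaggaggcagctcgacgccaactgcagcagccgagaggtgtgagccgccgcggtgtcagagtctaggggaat
The first capital run of the upstream window is a 10-base match to the single decamer of the p53 element, starting 73 bases before the start, and such a decamer was present in 8.36% of all 32851 windows. The second run, starting 51 bases before the start, is a pair of adjacent decamers with at most 1 of its 20 bases off the consensus. That longer pattern was looked for after this window had been read, and it was present in 29 windows, or 0.0883% of all. It was found in 1 of the 9 windows of the members, and among the other 8 a single decamer was present in 1, that of *Cdkn2d*, 102 bases before its start. The downstream window holds the GC box at 104 and at 46 bases before the start and no p53 match. The deposited value of a gene pools its transcripts, so which start gave the reads cannot be told apart.

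*Cdkn1b* (ENSMUSG00000003031, chr6:134920401-134925513, plus strand), which encodes p27, was the most abundant member in PBS. Its level was 36.9, 34.6 and 33.8 FPKM in PBS and 40.4, 24.99 and 37.2 FPKM in CTX. CTX replicates 1 and 3 lay above every PBS sample and CTX replicate 2 lay below every one, so the groups overlapped. The means were 35.1 ± 1.58 and 34.2 ± 8.14 FPKM (SD, n = 3 each). The log2 difference of -0.07 had an SE of 0.18, an adjusted p of 0.854 (limma) and a 95% interval from -0.50 to 0.37, so a change as large as that of *Cdkn1a* lay outside it. Its promoter (chr6:134920151-134920450, plus strand, RefSeq on GRCm38.p6) is shown beside those of *Cdkn1a* as the window of the family's most abundant member in PBS. Its capitals mark GGGCGG and CCAAT on either strand.
Cdkn1b: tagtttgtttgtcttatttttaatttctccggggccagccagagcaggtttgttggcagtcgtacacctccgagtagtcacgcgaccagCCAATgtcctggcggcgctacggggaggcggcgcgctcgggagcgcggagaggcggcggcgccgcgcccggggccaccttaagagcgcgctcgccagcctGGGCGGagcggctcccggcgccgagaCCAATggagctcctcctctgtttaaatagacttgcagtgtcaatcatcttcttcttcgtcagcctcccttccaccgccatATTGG
This window has a GC content of 62% and 30 CpG dinucleotides, with the GC box 61 bases before the start and no p53 decamer. CCAAT occurs 161 and 35 bases before the start and, on the other strand, from base 46 after it. Over all windows, 35.7% held GGGCGG and 37.4% held CCAAT.

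*Cdkn1c* (ENSMUSG00000037664, chr7:143458339-143461050, minus strand), an imprinted gene that encodes p57, was low. It measured 2.17, 3.37 and 3.30 FPKM in PBS and 2.92, 1.52 and 2.90 FPKM in CTX, from 55 to 126 reads per sample. The ranges overlapped, and PBS replicate 1 was the second lowest of the 6 samples. The log2 difference was -0.29 with an SE of 0.30 (adjusted p = 0.601, limma), and without CTX replicate 2 it was 0.01. Its interval over all samples, -1.01 to 0.43, left room for a fall of more than 2-fold. An antisense gene, *Gm44732*, shares 625 exonic bases with it and was listed at 0 in every sample. These are 98.4% of the exonic bases of *Gm44732* and 30.7% of those of *Cdkn1c*. The strand setting of the counting is not known from the sources used here, so the 0 does not show that antisense RNA was absent.

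*Cdkn2c* and *Cdkn2d* were the INK4 genes with a level above 5 FPKM. *Cdkn2c* (ENSMUSG00000028551, chr4:109660876-109667189, minus strand) encodes p18 and measured 15.00, 14.93 and 16.8 FPKM in PBS. Its CTX samples were at 14.7, 7.58 and 14.6 FPKM, all below the lowest PBS sample, although CTX replicates 1 and 3 missed it by less than 0.5 FPKM. Of all tested genes, 14.1% had every CTX sample below every PBS sample and 15% had every CTX sample above, so a pattern of this kind was common. The log2 difference of *Cdkn2c* was -0.40 with an SE of 0.26, an adjusted p of 0.417 (limma) and a 95% interval from -1.02 to 0.23. Without CTX replicate 2 it was -0.09, with an interval from -0.27 to 0.10. *Cdkn2d* (ENSMUSG00000096472, chr9:21288410-21291407, minus strand) encodes p19 of the INK4 family and measured 12.3, 10.1 and 11.5 FPKM in PBS and 12.4, 8.84 and 11.03 FPKM in CTX. Its groups overlapped, and its log2 difference of -0.07 had the smallest SE of the tested members, 0.14, with an adjusted p of 0.785 (limma).

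*Cdkn2b* and *Cdkn2a* lie 11646 bases apart and were the lowest members. *Cdkn2b* (ENSMUSG00000073802, chr4:89306299-89311039, minus strand) encodes p15, a known target of TGF-beta signalling. It measured 1.33, 1.22 and 1.33 FPKM in PBS and 2.14, 0.243 and 1.205 FPKM in CTX. The highest and the lowest of its 6 values were both CTX samples. The value in CTX replicate 2 rested on 6 reads (exact Poisson 95% interval 2.20 to 13.1, counting error only), where the other samples had 30 to 54. The log2 difference was -0.48 with an SE of 0.66 (adjusted p = 0.700, limma), and without CTX replicate 2 it was 0.30. *Cdkn2a* (ENSMUSG00000044303, chr4:89274471-89294653, minus strand) had 4, 4 and 3 reads in PBS and 6, 1 and 6 reads in CTX, or 0.158 to 0.192 and 0.0481 to 0.286 FPKM. A modest change of *Cdkn2a* was not detectable at this depth. In the fit with no filter its log2 difference was 0.007 with an SE of 0.44, on a scale that understates changes of such low genes. The gene has a transcript for p16 and one for the unrelated protein p19ARF, which stabilises p53, and these share 575 of its 1172 exonic bases, so the gene-level value does not separate them.

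The plot of log2 differences with their intervals sets the 6 tested members side by side. Leaving out CTX replicate 2 turned the sign of *Cdkn1b* (to 0.15), *Cdkn1c*, *Cdkn2b* and *Cdkn2d* (to 0.06) and kept each of them below the threshold for a call.

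**Figure D2:**
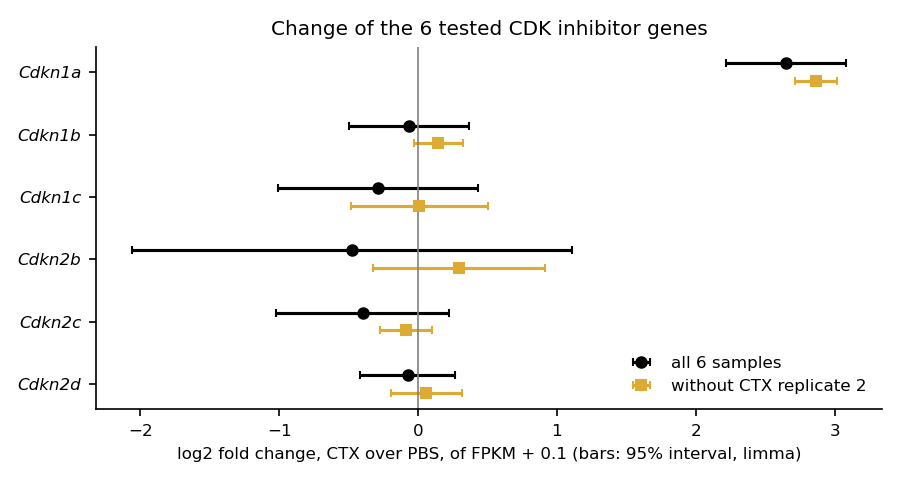
Log2 fold change, CTX relative to PBS, in FPKM + 0.1 (x axis) for the 6 tested members, with 95% intervals from limma, from all 6 samples (circles) and without CTX replicate 2 (squares). The interval of *Cdkn1a* (2.22 to 3.08 with all samples) is the one that stays clear of 0 in both fits.

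The order of the members by level changed between the groups. In PBS the order was *Cdkn1b*, *Cdkn2c*, *Cdkn2d*, *Cdkn1a*, *Cdkn1c*, *Cdkn2b* and *Cdkn2a*, and no 2 neighbours in it overlapped in FPKM. In CTX *Cdkn1a* came first, and its lowest sample (42.7 FPKM) was above the highest of *Cdkn1b* (40.4 FPKM). Lower in the CTX order, the ranges of *Cdkn2c* and *Cdkn2d* overlapped, as did those of *Cdkn1c* and *Cdkn2b* and those of *Cdkn2b* and *Cdkn2a*.

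Because both genes of a ratio come from the same sample, ratios of FPKM within a sample were also compared. The ratio of *Cdkn1a* to *Cdkn1b* was 0.256, 0.256 and 0.263 in PBS and 1.64, 1.71 and 1.795 in CTX. In this ratio CTX replicate 2 lay between the other CTX samples, while its FPKM values of both genes were the lowest of the CTX group. The ratio to *Cdkn2d* was 0.769 to 0.875 in PBS and 4.82 to 6.06 in CTX, and that to *Cdkn2c* was 0.530 to 0.629 and 4.53 to 5.63. Over *Cdkn1c* the ratio was 2.63 to 4.34 in PBS and 22.7 to 28.1 in CTX. The widest spread was over *Cdkn2b*, with 6.68 to 7.28 in PBS and 31.0, 175 and 55.5 in CTX, where the value of 175 has the 6 reads of *Cdkn2b* in its denominator. In all 5 comparisons the groups did not overlap, and each gave an exact two-sided permutation p of 0.1 (adjusted 0.1), the smallest that 3 samples against 3 allow. The 5 ratios share *Cdkn1a* as numerator, so they restate its rise and are not separate observations.

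**Figure D3:**
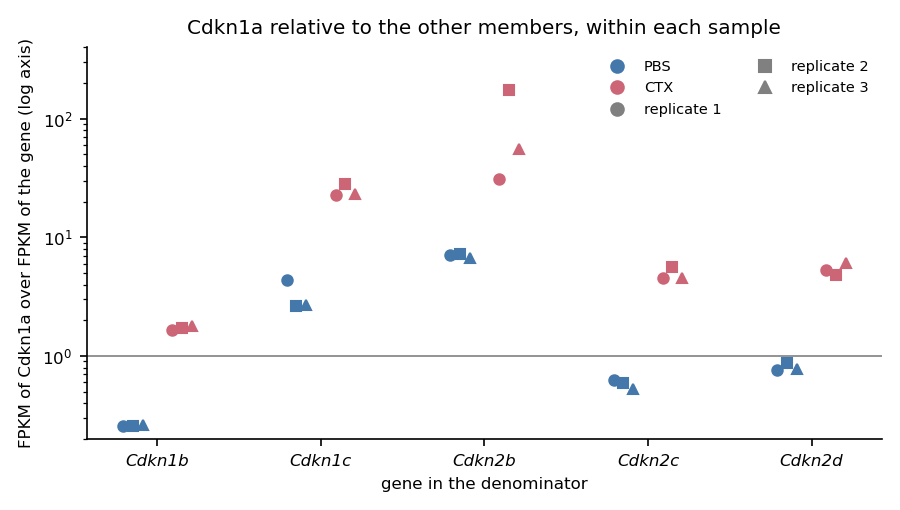
FPKM of *Cdkn1a* divided by the FPKM of another member in the same sample (y axis, log scale), for the 5 other tested members, PBS in blue and CTX in red. Over *Cdkn1b* the CTX ratios of 1.64 to 1.795 lie above 1 and the PBS ratios of 0.256 to 0.263 below it.

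Summed over the 7 members, the level was 77.3, 73.2 and 75.8 FPKM in PBS and 139, 85.9 and 134 FPKM in CTX, or 75.4 ± 2.03 and 120 ± 29.5 (SD, n = 3 each). The sum of the 6 members other than *Cdkn1a* was 66.4 ± 1.78 FPKM in PBS and 61.1 ± 15.8 in CTX, with overlapping groups (exact permutation p = 0.9). The share of *Cdkn1a* in the sum of all 7 was 12.0% ± 0.241 in PBS and 49.1% ± 1.198 in CTX (SD, n = 3 each, exact permutation p = 0.1, the smallest possible). The share of *Cdkn1b* went from 46.5% ± 1.63 to 28.6% ± 0.748 while its level did not pass the test, since the sum grew. Within the INK4 family the sums were 28.3 ± 1.69 FPKM in PBS and 24.5 ± 6.82 in CTX (exact permutation p = 0.6).

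**Figure D4:**
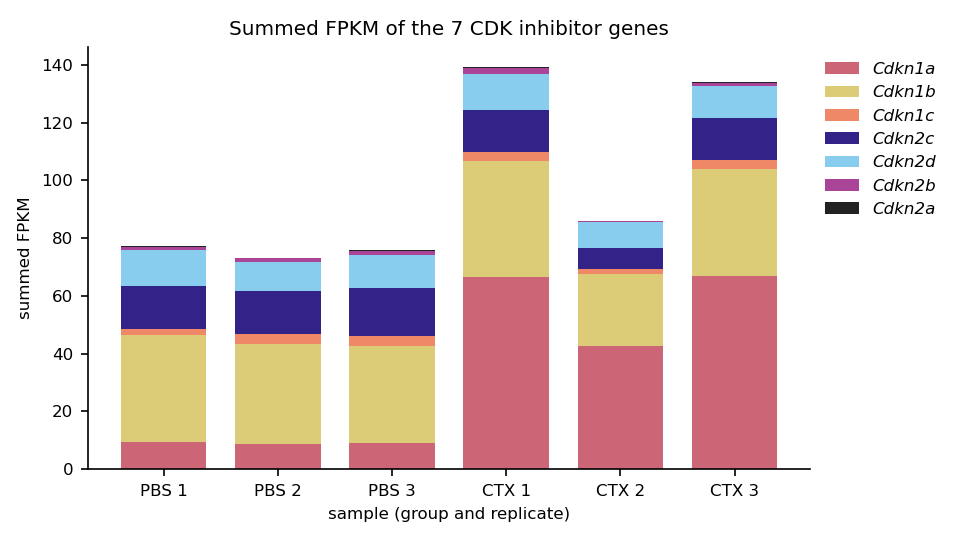
Summed FPKM (y axis) of the 7 CDK inhibitor genes in each of the 6 samples, stacked by gene. The *Cdkn1a* block fills 11.7% to 12.2% of each PBS bar and 47.7% to 49.8% of each CTX bar, and the bar of CTX replicate 2 is the lowest of the CTX group.

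CTX replicate 2 had the lowest value of the CTX samples in all 7 members, and the lowest of all 6 samples in 6 of them, the exception being *Cdkn1a*. Among all tested genes, 37.6% had their lowest CTX value in this sample and 28.2% their lowest value overall. On the log2 scale (FPKM + 0.1), CTX replicate 2 differed from the mean of CTX replicates 1 and 3 by -0.40 in *Cdkn2d* to -2.37 in *Cdkn2b*, with a median of -0.89 over the members against 0.01 over all tested genes. The difference of *Cdkn1a* was -0.64 and that of *Cdkn1b* -0.63, and 11.2% and 11.4% of tested genes had a lower value. Markers moved in both directions in the same sample, and 7 of the 10 GC markers had their lowest value of the 6 samples there. *Cyp19a1*, the aromatase of GCs, was 6.61 FPKM there and 47.6 and 32.5 in CTX replicates 1 and 3, and *Fshr*, the FSH receptor, was 42.8 against 80.5 and 69.9. *Amh*, the anti-Mullerian hormone gene, was 179 FPKM there against 54.3 and 85.5, and its receptor gene *Amhr2* was 142 against 79.3 and 85.5. The 11 luteinising and ovulatory markers summed to 25.2 FPKM there against 913 and 575, and most of each sum was *Cyp11a1*, at 14.4 against 727 and 486. *Btc* and *Has2* of that list instead had their highest CTX value there. The 10 theca and stroma markers summed to 35.5 against 73.5 and 54.6. Within them *Cyp17a1*, a theca steroidogenic enzyme, was 1.25 against 29.6 and 12.4 while *Acta2* was 20.5 against 14.7 and 16.7. *Amh*, *Amhr2* and the further luteinising and leukocyte genes named here were named after their values were seen. The 11 leukocyte markers summed to 61.3 FPKM against 32.5 and 23.0, with *Ptprc* at 0.092, and most of each sum was *Lyz2*, at 45.8 against 22.9 and 14.7. *Itgam* and *S100a8* of that list instead had their lowest CTX value there. The 10 oocyte markers summed to 91.3 against 51.2 and 89.4. No marker of these lists was at 0 in every sample. Fewer cells of a type and less RNA per cell cannot be told apart in such pooled samples, and the part of these markers in the members' values was not tested.

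**Figure D5:**
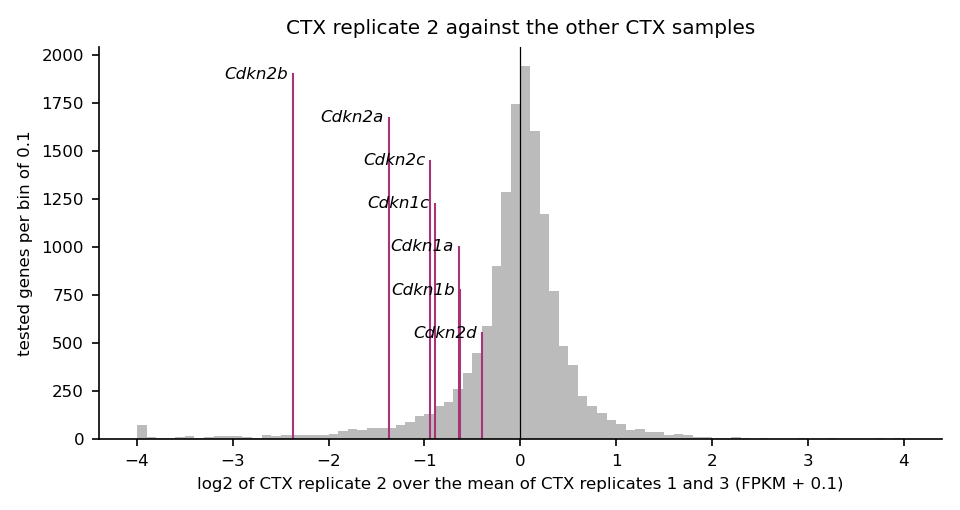
Number of tested genes (y axis) by the log2 difference of CTX replicate 2 from the mean of CTX replicates 1 and 3 in FPKM + 0.1 (x axis, bins of 0.1, values beyond -4 and 4 placed in the end bins), with the 7 members as lines whose height has no meaning. All members lie left of 0, from -2.37 for *Cdkn2b* to -0.40 for *Cdkn2d*.

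The genes around the members were compared as well. Within 100 kb of a member lay 52 genes that are not members. Of the genes tested there, 21 with the member *Cdkn2b* counted among them, 0 reached an adjusted p below 0.05. Over all genes tested, 1.4% did so with CTX higher and 0.36% with CTX lower. A transcript of uncertain coding status on the opposite strand, *AC167363.2*, shares 273 exonic bases with *Cdkn1a*, or 7.68% of its exons, and had 3, 4 and 7 reads in PBS and 8, 26 and 24 in CTX (log2 difference 1.57, adjusted p = 0.191, limma). Whether the counting used strand is not given in the sources used here, so reads of the shared bases could belong to either gene. These reads were few beside the 2689 to 4276 on *Cdkn1a* in the CTX samples. *Trp53cor1*, a long noncoding RNA known as a p53 target that acts on *Cdkn1a*, lies on the opposite strand, 11797 bases upstream of *Cdkn1a*. It was below the filter and was named after its values were seen. It had 4, 8 and 2 reads in PBS and 32, 18 and 28 in CTX, with groups that did not overlap, and in the fit with no filter its log2 difference of 1.53 had an adjusted p of 0.158 (limma). *Lockd*, a noncoding RNA 3579 bases downstream of *Cdkn1b*, measured 1.16, 1.11 and 1.120 FPKM in PBS and 1.03, 0.399 and 1.10 in CTX (log2 difference -0.49, adjusted p = 0.474, limma, and -0.08 without CTX replicate 2), and like *Cdkn1b* it was lowest in CTX replicate 2.

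The genes whose pattern over the 6 samples was nearest to that of *Cdkn1a* were ranked by the root mean square difference of log2(FPKM + 0.1) from each gene's own PBS mean, over 14462 genes. The nearest was *Csrnp1*, which encodes a nuclear protein, at 0.0974. Its level was 4.17, 4.22 and 4.59 FPKM in PBS and 28.5, 20.7 and 30.6 FPKM in CTX. Next came *Gria3*, a glutamate receptor subunit, at 0.137, with 0.113 to 0.188 FPKM in PBS and 1.23 to 1.77 in CTX. Its PBS mean of 0.148 FPKM was near the pseudocount of 0.1, and it reached the filter of 0.5 FPKM only through its CTX values. Its log2 difference ran from 1.15 to 3.34 over the alternatives, so its closeness depends on the pseudocount. The third was *Bbc3*, the apoptosis gene that encodes PUMA and is a known p53 target, at 0.185, with 2.12 to 2.77 FPKM in PBS and 14.8 to 22.3 in CTX. Each of these 3 genes had its lowest CTX value in replicate 2, as *Cdkn1a* had. The ranking used that sample, so this is no separate observation.

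Among the regulators of the Cip/Kip genes, 2 of 13 tested genes were called higher and 0 lower, beside 0.802% and 0.159% of all genes tested. They were *Klf4*, a zinc finger factor that can activate *Cdkn1a*, at 2.31 ± 0.0767 FPKM in PBS and 22.7 ± 5.49 in CTX (log2 difference 3.21, adjusted p = 8.6e-04, limma), and *Klf6*, a relative of it, at 23.8 ± 2.24 and 92.3 ± 11.6 FPKM (1.95, adjusted p = 1.2e-03). *Mdm2*, the ubiquitin ligase of p53 and itself a p53 target, passed by adjusted p alone with a log2 difference of 0.87, which it did not without CTX replicate 3 or without any 1 of the PBS samples. *Trp53*, which encodes p53, measured 29.8 to 30.5 FPKM in PBS and 33.7, 48.6 and 36.5 in CTX (log2 difference 0.38, adjusted p = 0.217, limma). Without CTX replicate 2 the *Trp53* difference was 0.22. Here CTX replicate 2 was the highest sample, whereas it was the lowest CTX sample for *Cdkn1a*. The lowest log2 difference of the list was that of *Men1*, -0.31. The median of the list was 0.30 beside -0.01 over all genes tested. This list and the later ones were chosen with earlier results of these data known. Their counts and medians therefore do not test them against all genes. *Myc*, named after its values were seen, had a log2 difference of 1.205 with an adjusted p of 0.058 (limma), and the list held 3 calls without CTX replicate 1, with a minimum mean of 5 FPKM, with sample weights and by voom.

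Among genes that degrade or modify the Cip/Kip proteins, 1 of 15 was called higher and 0 lower, beside 0.802% and 0.159% of all genes tested. It was *Pim1*, a kinase that phosphorylates p21 and p27, with 5.20 to 6.06 FPKM in PBS and 14.9, 29.0 and 22.5 in CTX (log2 difference 1.89, adjusted p = 0.019, limma). This call was lost without CTX replicate 3 or without any 1 of the PBS samples, with adjusted p-values up to 0.107 over the alternatives (limma). *Dtl*, which directs p21 to degradation, passed by adjusted p alone with a log2 difference of 0.55, and *Skp2*, which does so for p27, had the lowest value of the list at -0.25, or -0.16 without CTX replicate 2. None of the 21 tested regulators of the INK4 genes was called. With the shares over all genes this low, the absence of calls in a list of this size says little about it. The log2 differences of that list ran from -0.38 for *Id3* to 0.81 for *Id1*.

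Downstream of the inhibitors, 0 of the 9 tested cyclins and kinases that they bind were called, with log2 differences from -0.59 for *Cdk6* to 0.26 for *Ccne2*. Over all genes tested, 0.802% were called higher and 0.159% lower, so 0 calls in this list and those that follow say little about them. Of the 13 RB and E2F genes 0 were called, and *Rb1*, the founding RB gene, passed by adjusted p alone with 0.50, while *E2f4* was lowest at -0.14. Of the 27 genes repressed through RB and DREAM, which serve DNA replication and mitosis, 0 were called. *Cdt1*, a replication licensing factor, passed by adjusted p alone at 0.54. The values ran from -0.82 for *Cdc25c* to 0.76 for *Rrm2*, with a median of 0.11, or 0.05 without CTX replicate 2. This median joins genes that moved in opposite directions. The groups were free of overlap in 9 of the 27 genes with CTX higher and in 7 with CTX lower. Among all tested genes these patterns made up 15% and 14.1%. Named after their values were seen, *Plk1* (-0.75) and *Ccnb2* (-0.71) serve mitosis, and *Mcm7* (0.34) and *Mcm4* (0.26) serve replication. None of these 4 passed by adjusted p. In CTX replicate 2, 13 of the 27 genes had their lowest value of all 6, as had 28.2% of all tested genes. Without it *Rrm2* and *Cdc25c* also passed by adjusted p alone, at 1.6e-03 and 0.014 (limma). The passes of *Dtl*, *Rb1* and *Cdt1* were also lost without CTX replicate 3 or without any 1 of the PBS samples.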

How the data were processed

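RNA-seq was performed on GCs in 3 PBS and 3 CTX samples. According to the submitters' processing notes, CASAVA 1.8, fastp, HISAT2 2.0.5, featureCounts 1.5.0-p3 and DESeq2 1.20.0 were used on mm10. The authors deposited FPKM values per gene and sample with gene lengths. The group means and the authors' own fold change and p-value columns in the deposited table were not used, and 0 per-sample columns were left out. Reads were rebuilt from the FPKM values, and 100% of the values checked were whole within 0.01 read. They gave the depth, and 3 reads on a 1 kb gene correspond to 0.164 to 0.185 FPKM. The methods give the 3 samples of a group as biological replicates, so p-values measure the spread between pools of 3 mice.

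The PBS and CTX groups were compared on log2(FPKM + 0.1) by limma 3.58.1 (lmFit, eBayes with trend) in R 4.3.3, two-sided, with Benjamini-Hochberg adjustment over the 14463 genes whose mean over all samples reached 0.5 FPKM. Fold changes on this scale understate the change of low genes. The script was tested on simulated data that had the PBS spread in both groups. That test does not cover the larger spread of the CTX samples (median SD of log2(FPKM + 0.1) 0.104 in PBS and 0.180 in CTX). Intervals are 95%. Ratios, shares and sums were compared with exact two-sided permutation tests over samples in SciPy 1.17.1 (Python 3.11.15, pandas 2.3.3, NumPy 2.4.6, matplotlib 3.10.9). Promoter windows came from RefSeq on GRCm38.p6 and matched 6 of the 7 members, and exons from GENCODE M21. A TATA box (TATAAA), a FOXO core (GTAAACA) and an E2F site (TTTCGCGC, or its variant TTTGGCGC) were also looked for on both strands and were present in 0 of the 9 windows of the members, against 13.6%, 3.65% and 0.813% of all windows.

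The members and gene lists were chosen with earlier results of these data known. Named genes were the members, list genes that passed either threshold with the highest and lowest of each list, tested or overlapping genes within 100 kb, the 3 genes nearest in pattern to a called member and a set of markers. A further list gene is not reported here. Alternatives were other pseudocounts, filters, scalings, sample weights, a replicate block, voom on the rebuilt reads and leaving out each sample. Samples with the same replicate number did not deviate together (correlations 0.0556, 0.0242 and 0.00581), so the numbers were not taken as pairs.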

Additional observations from a re-analysis of the deposited data

How the results depend on the processing

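*Cdkn1a* was called higher under all 18 alternatives, with log2 differences of 2.54 to 2.87 and adjusted p-values up to 0.027 (limma). The number of members called was 1 under each. With a replicate block, as if samples with the same number were paired, *Cdkn1a* had an adjusted p of 0.027 and the calls over all genes went from 139 to 50; the block changed no other call of a member. Leaving out a sample gave 58 to 205 calls over all genes, with 67, 66 and 58 without PBS replicate 1, 2 or 3 and 84 without CTX replicate 3. Sample weights gave 657 calls, with a weight of 16.6 on CTX replicate 3 and of 0.304 and 0.164 on CTX replicates 1 and 2. The weighted fit therefore rested mostly on 1 CTX sample. For the other named genes the same alternatives were added after seeing the data. *Klf4*, *Klf6*, *Ccng1*, *Csrnp1* and *Bbc3* were called in all 18, *Pim1* in 13 of 18 and *Gria3* in 13 of 17. By adjusted p alone, *Mdm2*, *Dtl* and *Rb1* passed in 13 of 18 and *Cdt1* in 12. These losses fell on the replicate block, on leaving out CTX replicate 3 or a PBS sample (for *Gria3*, PBS replicate 2 or 3) and, for *Cdt1*, on eBayes without trend. The call of *Acta2* was lost with the replicate block and without CTX replicate 3 or any 1 of the PBS samples. That of *Cd14* was lost under these and also with a pseudocount of 1, with no filter and by voom.

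The members that were not called changed sign in places. Without CTX replicate 2 the log2 difference was 0.15 for *Cdkn1b*, 0.00883 for *Cdkn1c*, 0.30 for *Cdkn2b* and 0.0589 for *Cdkn2d*, and sample weights gave 0.0801 for *Cdkn1b*. Leaving out each sample in turn gave -0.20 to 0.15 for *Cdkn1b*, -0.49 to 0.01 for *Cdkn1c*, -1.06 to 0.30 for *Cdkn2b*, -0.56 to -0.09 for *Cdkn2c* and -0.19 to 0.06 for *Cdkn2d*. The log2 difference of the ratio of *Cdkn1a* to *Cdkn1b* was 2.60 with a pseudocount of 1, since the larger pseudocount weighs on the lower gene. The rise in the share of *Cdkn1a* was 42.3 percentage points when summed within the Cip/Kip family. With a minimum mean of 5 FPKM, *Cdkn1c* and *Cdkn2b* were not tested. *Cdkn2a* with 1 to 6 reads per sample and *Cdkn2b* with 6 to 54 are limited by depth.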

Other observations

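Of 13 other tested genes that are named for CDK inhibition or binding, 1 was called higher and 0 lower, beside 0.802% and 0.159% of all genes tested. It was *Ccng1*, a cyclin G gene and known p53 target, with 19.1, 18.6 and 18.5 FPKM in PBS and 98.5, 68.9 and 91.4 FPKM in CTX (log2 difference 2.18, adjusted p = 1.3e-03, limma). Like *Cdkn1a*, it was lowest among the CTX samples in replicate 2, and its groups did not overlap. This list too was chosen with earlier results of these data known, so its count does not test it against all genes. *Cdkn3*, a phosphatase that acts on CDK2 and is no member of either inhibitor family, had the lowest value of the list. It measured 7.01, 5.59 and 6.22 FPKM in PBS and 4.58, 2.07 and 3.86 in CTX, with every CTX sample below every PBS sample. Its log2 difference of -0.89 had an SE of 0.29 and an adjusted p of 0.183 (limma), and without CTX replicate 2 it was -0.56.

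The SD of log2(FPKM + 0.1) was larger in CTX than in PBS for all 7 members, and the same held for 69.4% of all tested genes. The neighbour *Gm16754* near *Cdkn2d* had the lowest value among the tested genes within 100 kb of a member, with 0.559, 1.15 and 0.757 FPKM in PBS and 0.402, 0.259 and 0.321 in CTX (log2 difference -1.07, adjusted p = 0.190, limma).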
